A study of Mus musculus with 14 samples.

Results

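The genes described here are the axon guidance ligands and receptors of Ocy454 cells, a mouse osteocyte-like cell line that grows while a thermosensitive large T antigen is active and differentiates once the culture is moved to a higher temperature. Members were taken by symbol: class 3 to 7 semaphorins, plexins, neuropilins, Eph receptors and ephrins, Slit and Robo genes, netrins, Unc5 genes and Dcc. This gave 70 gene identifiers for 69 symbols (Efna5 is listed under 2), of 39179 genes in the differentiation table. Of these, 68 were among the 35886 genes of the sorted-cell files. All 14 libraries are from this 1 line, and their labels name no edited gene and no drug. The differentiation experiment has 8 polyA RNA libraries, 2 each at days 1, 7, 10 and 14 after the temperature shift. The sorting experiment has 6 libraries from day 17 cultures, separated by flow cytometry into the 10% of live cells with the highest and the 10% with the lowest surface CD61, the integrin beta-3 protein, with 3 libraries in each of CD61 high and CD61 low. The study describes the differentiation replicates as biological. Its sorted cells came from 3 independently collected groups, from which both gates were taken, and whether a replicate number marks 1 such group is not given in the sources used here. The p-values below rest on the spread between these libraries. In limma and edgeR the spread of each gene is drawn toward a trend over all tested genes. The p-values and SE are thus not based on a gene's own 2 or 3 libraries a group alone.

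Guidance cues are secreted or membrane-held ligands that a growing process reads through receptors on its surface. Semaphorins act through plexins, with neuropilins as co-receptors for the secreted class 3 members. Ephrins sit on one cell and bind Eph receptors on the next, Slits bind Robo receptors, and netrins bind Dcc and Unc5 receptors. The same families act outside the nervous system: in bone, several of them carry signals between osteoclasts and osteoblasts, and osteocytes extend long dendrites through mineralized matrix. Dendrites themselves were not measured in these files.

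Depth was similar across libraries, with 27518605 to 34311238 reads per library in the differentiation experiment and 18815602 to 19220064 estimated counts in the sorted cells. Itgb3, which encodes CD61, was at 5.31, 5.54 and 6.10 TMM-scaled CPM in CD61 low cells and 130.1, 100.1 and 103.6 in CD61 high cells, so the 2 gates did not overlap at the RNA level. The osteocyte genes Dmp1, Phex and Sost were each higher at day 14 than at day 1, with Log2FC of 4.83, 5.60 and 4.22 and limma adjusted p below the threshold, and each was higher in CD61 high cells, with Log2FC of 4.29, 2.17 and 1.197. Of the 10 osteocyte and osteoblast markers examined, 9 were tested, of which 6 were called higher at day 14 and 8 in CD61 high cells, and 0 were called lower. Pdpn, an early osteocyte marker, had negative Log2FC of -0.53 and -0.48, and Col1a1 had -0.47 at day 14 and 1.34 between the gates. Mepe, another osteocyte gene, stayed at a mean of 0.411 CPM or less in every group. Of 8 neuron markers, Rbfox3, Snap25, Stmn2 and Elavl4 had no reads in any differentiation library, and the summed level of all 8 was 0.810 to 1.83 CPM there and 1.94 to 4.11 TMM-scaled CPM in the sorted cells.

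Which guidance genes these cells carry was read from TPM in the sorted cells, the length-corrected scale on which genes can be set side by side. Receptors led: Plxnb2, a plexin for class 4 semaphorins, was at 268 ± 15.9 TPM (SD, n = 3) in CD61 low and 432 ± 16.8 in CD61 high cells. Nrp2, the co-receptor that prefers Sema3f, followed at 132 ± 22.0 and 186 ± 33.4 TPM. Unc5b, a repulsive netrin receptor, was at 113 ± 18.1 and 111 ± 14.0 TPM, and its libraries overlapped those of Nrp2 in CD61 low cells. Below these came Plxnd1, Sema3f, Efnb1, Robo2, Plxna1, Plxna3 and Sema6c, with mean TPM over the 6 libraries between 49.9 and 74.7, each overlapping its neighbours in that order over the 6 libraries. The order differed between the gates: Sema3f was above Plxnd1 in CD61 low cells, at 83.4 and 64.2 TPM, and Slit3, outside the first 10 by the mean of all 6 libraries, was at 55.1 TPM in CD61 high cells, above Plxna1 at 51.7. TPM were not rescaled between libraries, so they are used for levels and not for the comparison of the gates. The netrin receptor Dcc had a mean of 0.0331 TPM or less in either gate. Neo1, a gene of these pathways that the symbol rule leaves out, was at 106 ± 15.3 and 152 ± 23.7 TPM (SD, n = 3) in CD61 low and CD61 high cells.

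**Figure D1:**
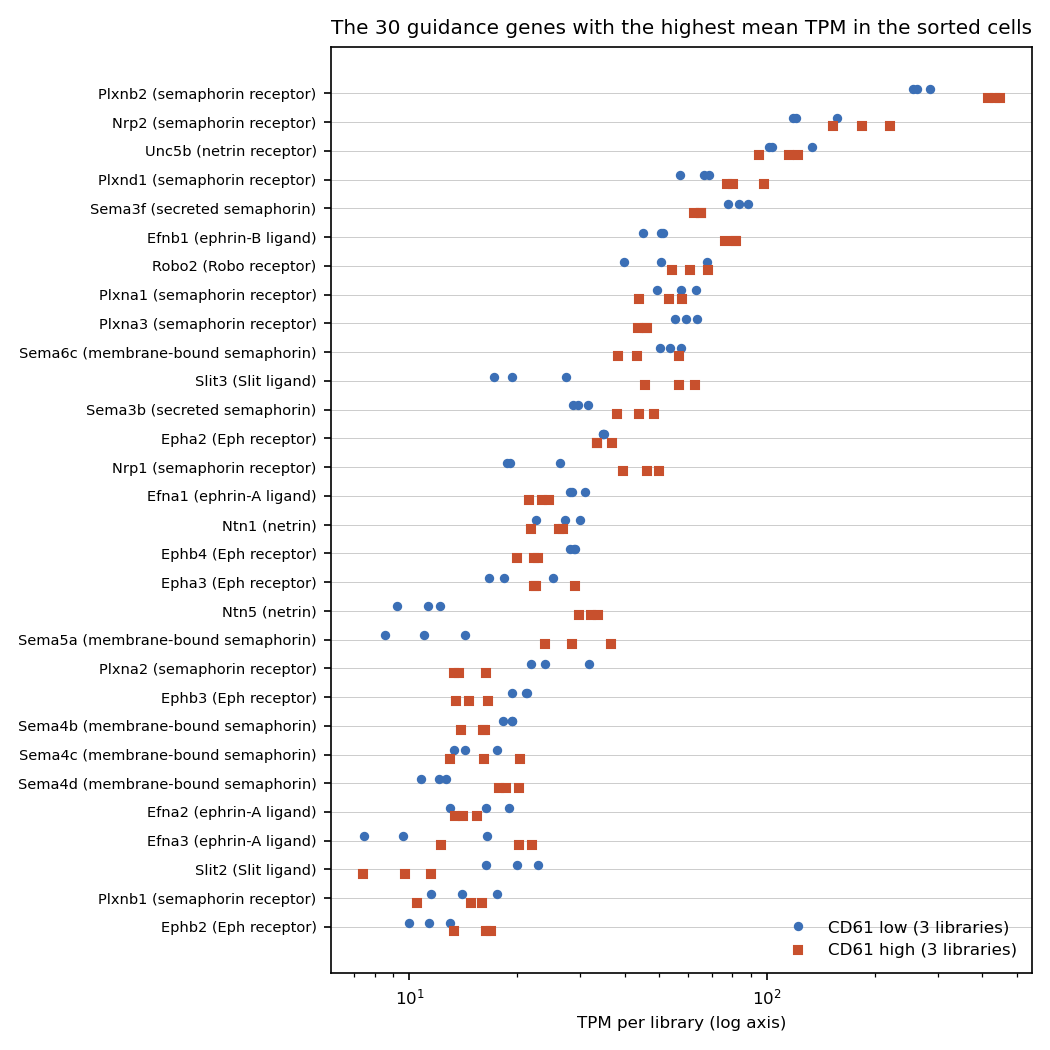
TPM of the 30 guidance genes with the highest mean in the sorted cells, on a log axis, 1 point per library (3 CD61 low, 3 CD61 high). Plxnb2 stands at the top, above Nrp2 and Unc5b, and 4 of the 9 genes below it among the first 10 are plexins or neuropilins.

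Not every family member was there to be tested. In the differentiation experiment 56 of the 70 passed the filter of more than 1 CPM in at least 1 library. The other 14, among them Dcc, Epha5, Epha6, Epha10, Ephb1, Plxna4, Robo3, Robo4, Sema5b, Sema6d, Slit1 and Unc5d, stayed at or below 0.657 CPM, and 5 of them had 0 reads in all 8 libraries, which allows up to 0.0120 CPM over the pooled reads. In the sorted cells 51 members reached the minimum of 5 normalized counts per library. Of the 19 others, 2 were not in those files and 17 fell below the filter, 8 of them with 0 counts, which allows up to 0.0264 CPM over the pooled counts. These limits cover counting error only.

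The differentiation comparison asked which guidance genes change as the cells take on osteocyte features. At day 14 against day 1, 11 tested members rose and 9 fell, 20 of 56 or 35.7%, where 13.4% of all 12725 tested genes were called (7.51% higher and 5.9% lower). A gene was called when its adjusted p was below 0.01 and its Log2FC, on the log2(CPM + 1) scale, was above 1 or below -1. That scale understates the change of genes at a few CPM. The median Log2FC of the members was 0.02, beside -0.03 over all tested genes. Changes ran in both directions within several families, so the families are given one by one.

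Secreted semaphorins split into a pair that fell and a pair that rose. Sema3c, a class 3 ligand known from heart outflow and vessel patterning, was at 116 and 115 CPM on day 1, 20.8 and 18.9 on day 7, 19.4 and 17.4 on day 10, and 10.9 and 10.8 on day 14. Both day 1 libraries stood above all others, and the day 14 libraries were the lowest (Log2FC of -3.30 ± 0.07 (SE), limma adjusted p = 4.0e-24). Sema3a, the classical axon repellent, which also protects bone mass, was at 148 and 151 CPM on day 1, 46.1 and 44.5 on day 7, 37.0 and 38.0 on day 10, and 29.2 and 33.7 on day 14. Most of its drop was already present at day 7, and its Log2FC at day 14 was -2.22 ± 0.06 (SE), limma adjusted p = 3.5e-22. Sema3b, a ligand of neuropilin-plexin complexes, went the other way, at 23.4 and 24.1 CPM on day 1, 97.3 and 99.0 on day 7, 88.6 and 83.3 on day 10, and 110.1 and 102 on day 14. Its 6 later libraries all lay above the 2 of day 1 (Log2FC of 2.12 ± 0.05 (SE), limma adjusted p = 3.6e-23). Sema3d, another neuropilin ligand, was higher at day 14 as well (Log2FC of 1.34 ± 0.05 (SE), limma adjusted p = 6.8e-19), though not steadily, as described below. Sema3e, the plexin-D1 ligand, did not pass the fold threshold (Log2FC of -0.82), nor did Sema3f (-0.06) or Sema3g (0.17).

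Among 11 tested membrane-bound semaphorins, 4 rose and 1 fell. Sema5a, a transmembrane semaphorin with thrombospondin repeats, was at 22.9 and 22.1 CPM on day 1, 99.3 and 99.6 on day 7, 132 and 144 on day 10, and 168 and 156 on day 14. Each day lay above the one before without overlap of its libraries. The day 14 Log2FC of Sema5a, 2.79 ± 0.05 (SE), limma adjusted p = 6.0e-26, was the highest of the tested members on the log2(CPM + 1) scale. Ntn5, described below, rose by a slightly higher ratio of mean CPM. Sema4d, the ligand of plexin-B1 that osteoclasts use to restrain osteoblasts, was at 13.5 and 13.5 CPM on day 1, 45.9 and 45.2 on day 7, 43.9 and 47.1 on day 10, and 53.0 and 51.6 on day 14. All later libraries were above both day 1 libraries (Log2FC of 1.88 ± 0.06 (SE), limma adjusted p = 2.9e-20). Sema4g rose from 3.57 and 2.92 CPM on day 1 to 10.00 and 8.69 on day 14 (Log2FC of 1.29 ± 0.11 (SE), limma adjusted p = 6.7e-11). Sema4a rose from a low level, 0.797 and 0.721 CPM on day 1 to 3.29 and 3.16 on day 14 (Log2FC of 1.27 ± 0.14 (SE), limma adjusted p = 6.4e-09), and Sema4f fell from 2.66 and 2.23 CPM on day 1 to 0.641 and 0.545 on day 14 (Log2FC of -1.11 ± 0.15 (SE), limma adjusted p = 2.2e-07). The day 14 libraries of these 3 genes did not overlap those of day 1. Sema6a, a ligand of plexin-A2 and plexin-A4, was at 0.413 and 0.470 CPM on day 1, 6.27 and 6.37 on day 7, 6.24 and 6.38 on day 10, and 1.89 and 1.24 on day 14. It was called at day 7 (Log2FC of 2.34) but not at day 14 (Log2FC of 0.82), unless a pseudocount of 0.1 (1.59) or edgeR on recovered reads (1.88) was used, or day 14 replicate 2 left out (1.01). The other members of the class, Sema4b, Sema4c, Sema6b, Sema6c and Sema7a, had Log2FC of -0.42, -0.07, 0.52, 0.60 and -0.40 at day 14 and were not called.

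Of the 10 tested semaphorin receptors, Plxnb1 was the single one called at day 14. Plxnb1, to which Sema4d binds, was at 29.1 and 24.5 CPM on day 1, 103 and 99.6 on day 7, 93.8 and 102 on day 10, and 84.8 and 78.8 on day 14, with both day 1 libraries below the rest (Log2FC of 1.58 ± 0.06 (SE), limma adjusted p = 3.1e-18). The abundant receptors did not pass the fold threshold: Nrp2 had a Log2FC of -0.26, Plxnb2 of 0.67, Plxna1 of -0.43, Plxna2 of -0.86, Plxna3 of 0.05, Plxnd1 of 0.08 and Nrp1 of 0.37. The neuropilins and the 3 tested plexin-A genes were thus not called at day 14, while their ligands Sema3a and Sema3c were. Plxna4, another plexin-A, was not tested.

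Ephrin ligands also moved in opposite directions. Efnb2, the transmembrane ephrin that pairs with Ephb4 in vessels and between bone cells, was at 46.7 and 46.1 CPM on day 1, 14.4 and 15.7 on day 7, 40.4 and 41.4 on day 10, and 20.2 and 21.5 on day 14. Its libraries were high at days 1 and 10 and low at days 7 and 14 (Log2FC of -1.12 ± 0.07 (SE), limma adjusted p = 2.5e-14). Efnb3 fell from 4.63 and 4.74 CPM on day 1 to 1.72 and 1.34 on day 14 (Log2FC of -1.17 ± 0.13 (SE), limma adjusted p = 1.1e-08). Efna3, a GPI-anchored ephrin-A, was at 1.83 and 1.88 CPM on day 1, 4.44 and 4.75 on day 7, 7.32 and 7.41 on day 10, and 8.22 and 8.21 on day 14, with no overlap between day 1 and any later day (Log2FC of 1.69 ± 0.11 (SE), limma adjusted p = 2.3e-13). Efnb1, the most abundant ephrin per length in the sorted cells, had a Log2FC of 0.14 and was not called, like Efna1, Efna2, Efna4 and Efna5, whose Log2FC lay between -0.58 and 0.09.

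Of 9 tested Eph receptors, 1 rose and 2 fell. Epha8 rose from 3.96 and 3.51 CPM on day 1 to 10.8 and 8.72 on day 14 (Log2FC of 1.18 ± 0.10 (SE), limma adjusted p = 7.0e-11). Epha4, which binds ephrins of both classes, fell from 5.90 and 5.96 CPM on day 1 to 0.903 and 1.05 on day 14 (Log2FC of -1.81 ± 0.13 (SE), limma adjusted p = 2.5e-12). Ephb6, an Eph receptor without kinase activity, fell from 24.4 and 23.1 CPM on day 1 to 9.79 and 9.38 on day 14 (Log2FC of -1.22 ± 0.08 (SE), limma adjusted p = 8.1e-13). In none of these 3 did the day 14 libraries reach the day 1 range. Ephb4, the receptor of Efnb2, had a Log2FC of -0.22, and the well-expressed Epha2, Epha3, Ephb2 and Ephb3 had 0.00, -0.68, -0.18 and -0.84, none of them called.

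Both tested Slits were called at day 14, in opposite directions. Slit3, a Robo ligand with a known role in bone formation, was at 24.5 and 22.3 CPM on day 1, 143 and 139 on day 7, 65.5 and 59.0 on day 10, and 148 and 131 on day 14. All later libraries exceeded those of day 1, with day 10 lower than its neighbours (Log2FC of 2.53 ± 0.06 (SE), limma adjusted p = 2.5e-23). Slit2, the better-known midline repellent, was at 62.7 and 60.5 CPM on day 1, 27.8 and 26.3 on day 7, 120.3 and 122.9 on day 10, and 29.0 and 30.1 on day 14. Here day 10 was the highest and the day 7 and day 14 libraries the lowest (Log2FC of -1.03 ± 0.05 (SE), limma adjusted p = 9.1e-16), and this call was lost by a small margin (Log2FC of -0.999) when CPM were rescaled by TMM. The main receptor Robo2 was at 71.5 and 73.3 CPM on day 1, 164 and 157 on day 7, 149.5 and 161 on day 10, and 133 and 127 on day 14. It was called at day 7 (Log2FC of 1.14) and day 10 (1.09) and not at day 14 (0.84), and Robo1 stayed at or below 1.86 CPM in every library. Robo1 was not called on either day, but a pseudocount of 0.1 and edgeR on recovered reads called it higher at day 7 (1.99 and 2.33) and at day 14 (1.27 and 1.51).

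Netrins followed the same split. Ntn1, the founding axon attractant, was at 197 and 190.1 CPM on day 1, 95.8 and 90.8 on day 7, 94.5 and 87.7 on day 10, and 70.7 and 71.4 on day 14, with day 1 above all later libraries (Log2FC of -1.43 ± 0.04 (SE), limma adjusted p = 2.7e-20). Ntn5, a short netrin-related protein, was at 1.53 and 1.44 CPM on day 1, 13.0 and 12.7 on day 7, 9.65 and 10.7 on day 10, and 11.5 and 10.8 on day 14, with day 1 below all later libraries (Log2FC of 2.28 ± 0.10 (SE), limma adjusted p = 7.2e-17). Ntn4, a basement membrane netrin, had a Log2FC of -0.81 and Ntn3 of 0.26, neither called. The receptor Unc5b was at 347 and 346 CPM on day 1, 664 and 668 on day 7, 736 and 726 on day 10, and 650.3 and 649 on day 14. Its later libraries were all above those of day 1, the Log2FC at day 14 was 0.91, under the fold threshold, and the one at day 10 (1.07) was called. Ntn5 exons overlap Sec1 on the opposite strand for 765 of 2336 bases, Sema4g overlaps Mrpl43 for 1046 of 5218, Ephb6 overlaps Trpv6 for 1112 of 7019 and Sema4d overlaps Secisbp2 for 204 of 9586. Strand use in counting is not given in the sources used here, so reads of each pair cannot be told apart there. The highest day mean was 1.43 CPM for Sec1 and 0.197 for Trpv6. Mrpl43 was at 50.8 to 60.5 CPM and Secisbp2 at 14.9 to 20.5, above Sema4d itself on day 1.

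**Figure D2:**
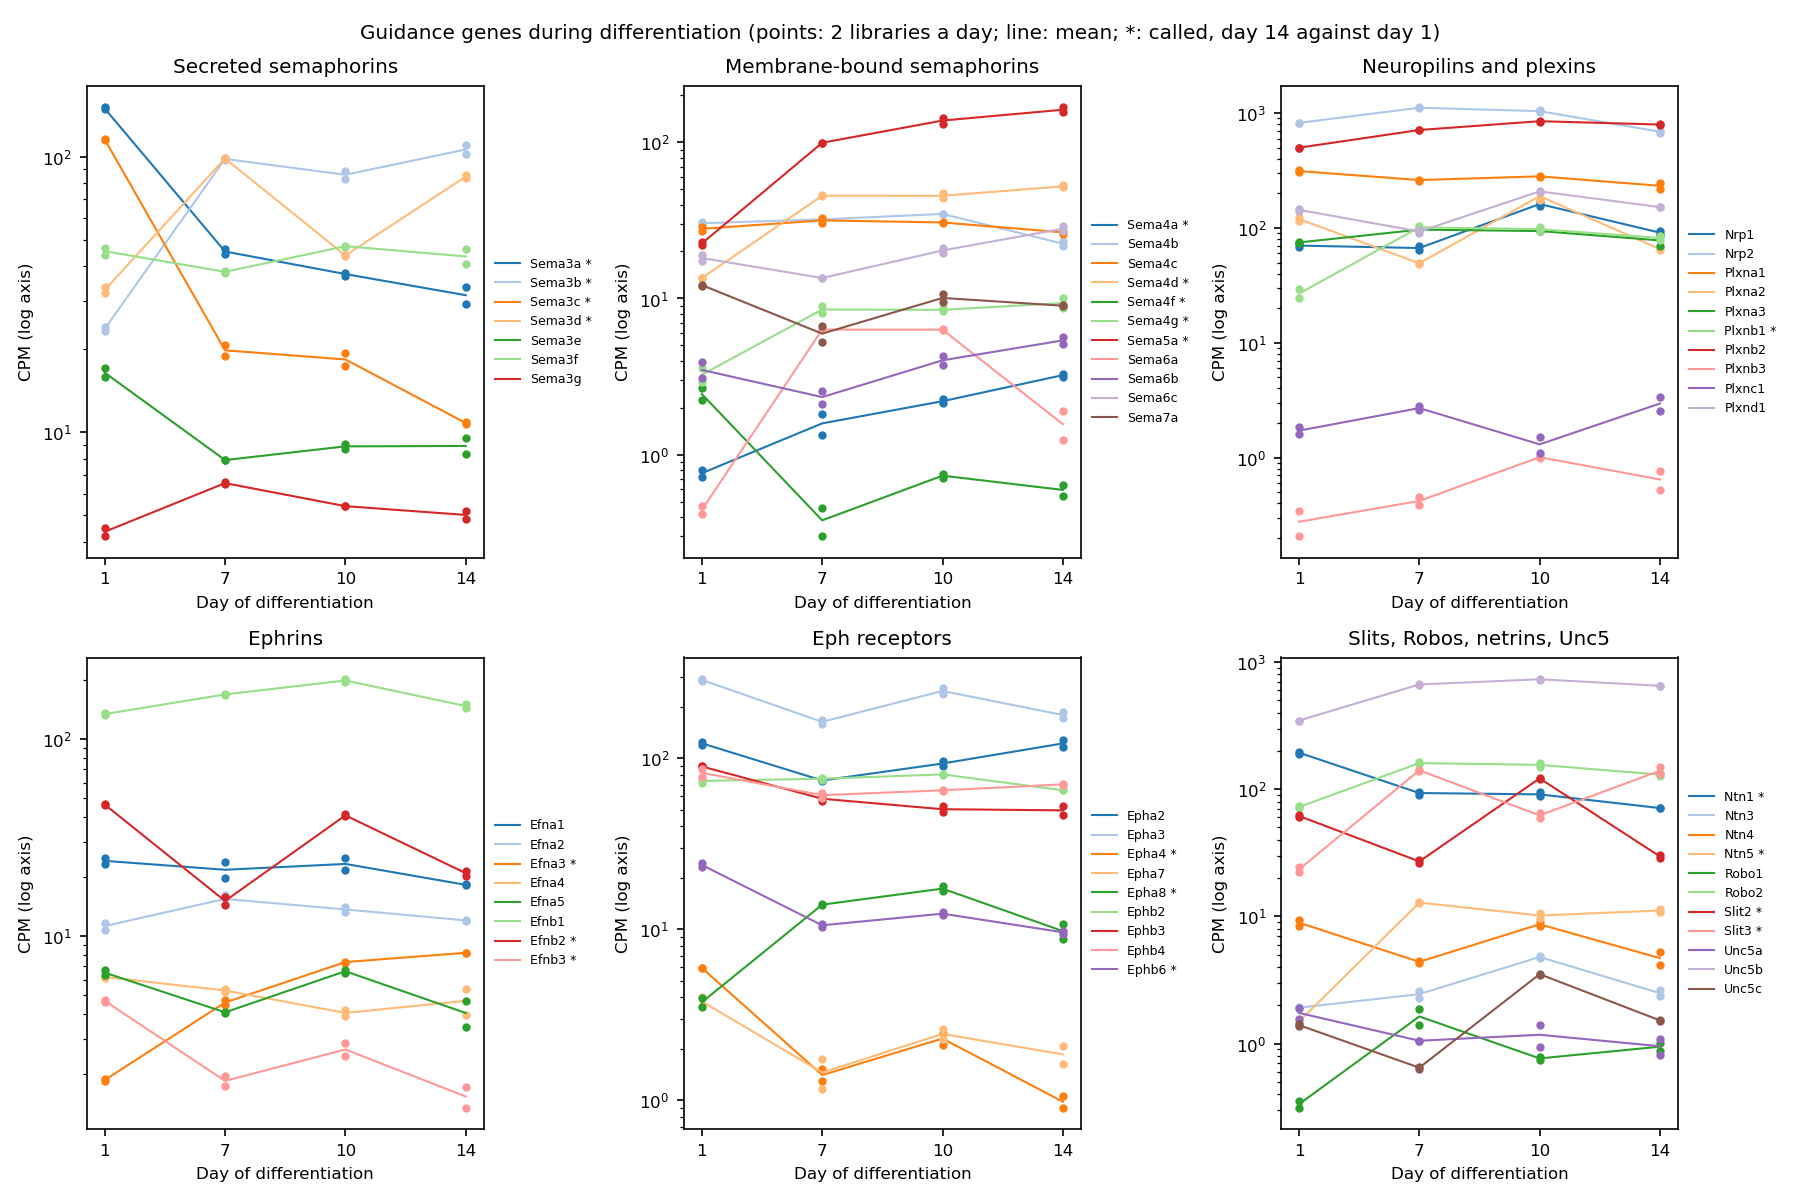
CPM on log axes against day of differentiation for the 56 tested guidance genes, split by family, with 1 point per library (2 a day), lines through the means, and an asterisk on each gene called between day 1 and day 14. Sema3a and Sema3c descend while Sema3b and Sema5a climb, and most of the shift is present by day 7.

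The timing was mostly early. At day 7 against day 1, 11 members rose and 10 fell (37.5% of 56, with 9.11% of all genes called), and at day 10 against day 1, 13 rose and 4 fell (30.4%, with 10.5% of all genes). Between day 7 and day 14, 1 member was called, 1.79% against 2.43% of all genes. That member was Sema6a, which fell (Log2FC of -1.52 ± 0.13 (SE), limma adjusted p = 3.9e-10). The count of this late comparison rested on the scale: it was 4 with a pseudocount of 0.1 and 5 with edgeR on recovered reads. The members gained were all higher at day 14. They were Sema6b (1.18 and 1.21), Sema6c (1.04 and 1.04) and Unc5c (1.12 and 1.22) with both, and Sema4a (1.004) with edgeR. Over all 12725 tested genes the pseudocount of 0.1 called 423 higher and 125 lower, and edgeR 443 and 129, beside 243 and 66 as reported.

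Day 10 stood apart for several members, a pattern seen in the data before these 2 further comparisons were made. At day 10 against day 7, 6 members rose and 2 fell (14.3% of 56, with 2.22% of all genes called), and at day 14 against day 10, 1 rose and 3 fell (7.14%, with 2.96% of all genes). The 2 comparisons share the day 10 libraries, so each gene's pair of values is given side by side and a departure of day 10 alone moves both. Slit2 had a Log2FC of 2.13 into day 10 and -2.004 out of it. Plxna2, a receptor of Sema6a, was at 125 and 115 CPM on day 1, 48.8 and 49.7 on day 7, 176 and 203 on day 10, and 66.8 and 64.0 on day 14, with Log2FC of 1.92 and -1.52. Slit3 was the mirror image, with -1.17 and 1.15. These 3 were the members called both ways, 5.36% of 56, beside 0.644% of all tested genes.

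The other members called into day 10 were not called on the way out of it on the log2(CPM + 1) scale. This rested on the scale for some of them: Unc5c was called at day 14 against day 10 with a pseudocount of 0.1 (-1.16) and with edgeR on recovered reads (-1.15), and Sema3d with the latter (1.01). Plxnc1, called in neither comparison, was then called in both (-1.01 and 1.13 with the pseudocount, -1.12 and 1.23 with edgeR). Nrp1, the co-receptor of Sema3a, was at 68.0 and 72.5 CPM on day 1, 69.3 and 64.5 on day 7, 156 and 167 on day 10, and 87.8 and 94.3 on day 14, with a Log2FC of 1.26 into day 10 and -0.82, not called, out of it. Both day 10 libraries were above all others. Plxnd1, the receptor of Sema3e, was at 148 and 140.1 CPM on day 1, 90.6 and 95.8 on day 7, 206 and 211 on day 10, and 152 and 152 on day 14, again with day 10 highest (Log2FC of 1.15 and -0.45). Efnb2 (1.39 and -0.94) and Unc5c (1.45 and -0.84) were higher at day 10 than at day 7, and Sema3d, at 33.8 and 31.9 CPM on day 1, 98.8 and 98.3 on day 7, 43.7 and 43.9 on day 10, and 83.6 and 85.7 on day 14, was lower (-1.15 and 0.93). Among 7 endothelial markers, Vwf moved with day 10, with means of 0.906, 5.47, 127 and 18.5 CPM at days 1, 7, 10 and 14, and the summed level of the 7 ranged from 124 to 132 CPM at day 10 and from 0.721 to 19.3 on the other days. Its companions Pecam1, Cdh5, Tie1, Tek, Emcn and Kdr had means of 0.142 CPM or less on every day. The 5 macrophage and blood cell markers in the table summed to 4.89 to 5.09 CPM at day 10 and 1.74 to 3.997 on the other days, most of it Cd68. The part of these markers in the day 10 values was not tested. With 2 libraries a day, day 10 as a stage and day 10 as a set of cultures cannot be told apart.

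**Figure D3:**
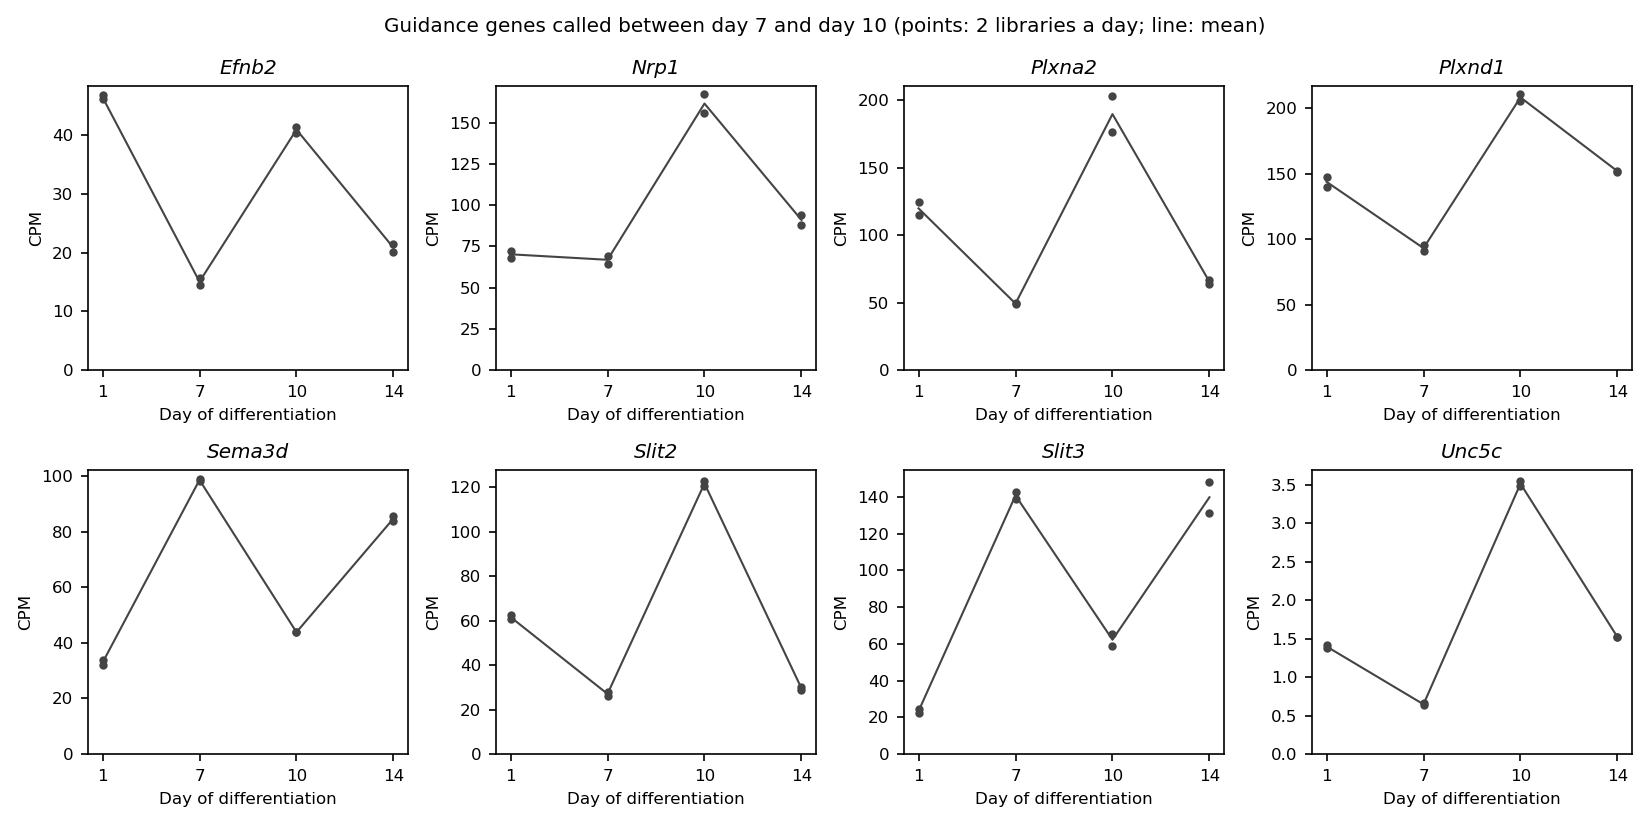
CPM against day of differentiation for the 8 guidance genes called between day 7 and day 10, with 1 point per library (2 a day) and lines through the means, each panel starting at 0. Slit2, Plxna2, Nrp1, Plxnd1, Efnb2 and Unc5c are higher at day 10 than at day 7, while Slit3 and Sema3d are lower.

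The sorting comparison asked which guidance genes separate cells of 1 culture age by their CD61 surface level. In CD61 high against CD61 low cells, 10 members were higher and 5 lower, 15 of 51 or 29.4%, where 9.22% of 12077 tested genes were called (4.84% higher and 4.37% lower). The median Log2FC of the members was 0.27 and that of all tested genes 0.00. TMM factors, which rescale for a few abundant genes, were 0.895 to 0.909 in CD61 high and 1.10 to 1.13 in CD61 low libraries. With library size alone the median of all tested genes shifted to -0.29, the members called became 6 higher and 11 lower, and the share of higher calls over all genes went from 52.6% to 24.7%. In bulk libraries of sorted cells, fewer cells that express a gene and less RNA per cell cannot be told apart.

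Of the 51 tested members, the 3 with the lowest Log2FC were semaphorin signalling genes. Plxnc1, the receptor of Sema7a, was at 5.02, 5.54 and 5.86 TMM-scaled CPM in CD61 low cells and 0.411, 0.345 and 0.588 in CD61 high cells. The CD61 high libraries were all below the lowest CD61 low library (Log2FC of -3.59 ± 0.26 (SE), edgeR adjusted p = 2.4e-06). Sema3c was at 13.8, 16.5 and 15.5 TMM-scaled CPM in CD61 low cells and 1.76, 2.07 and 2.76 in CD61 high cells (Log2FC of -2.79 ± 0.18 (SE), edgeR adjusted p = 1.1e-06). Sema3a was at 53.8, 60.6 and 54.9 TMM-scaled CPM in CD61 low cells and 9.27, 9.84 and 7.29 in CD61 high cells (Log2FC of -2.68 ± 0.12 (SE), edgeR adjusted p = 2.5e-07). For both ligands the highest CD61 high library was far below the lowest CD61 low library. Sema3e was also lower, at 11.5, 16.0 and 14.9 TMM-scaled CPM in CD61 low cells and 6.92, 4.66 and 5.12 in CD61 high cells (Log2FC of -1.34 ± 0.18 (SE), edgeR adjusted p = 1.7e-04), and among ephrins so was Efna5, at 9.62, 11.96 and 12.1 TMM-scaled CPM in CD61 low cells and 5.46, 3.11 and 3.65 in CD61 high cells (Log2FC of -1.46 ± 0.20 (SE), edgeR adjusted p = 2.1e-04). Neither gene's gates overlapped.

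Of the 7 secreted semaphorins, 3 were lower and the other 4 were not called. Sema3b, which had risen with time, had a Log2FC of 0.92, adjusted p = 6.0e-06 (edgeR), under the fold threshold. Sema3d, which had also risen with time, had 0.12, Sema3g -0.98 and Sema3f -0.16. Among 10 tested membrane-bound semaphorins, 5 were higher and the other 5 were not called. Sema5a was at 60.7, 44.5 and 72.8 TMM-scaled CPM in CD61 low cells and 231, 165 and 193 in CD61 high cells (Log2FC of 1.73 ± 0.17 (SE), edgeR adjusted p = 2.0e-05). Sema7a, a GPI-anchored semaphorin that binds plexin-C1 and beta-1 integrins, was at 3.11, 2.39 and 3.17 TMM-scaled CPM in CD61 low cells and 10.4, 6.91 and 10.5 in CD61 high cells (Log2FC of 1.68 ± 0.21 (SE), edgeR adjusted p = 9.9e-05). Both genes separated the gates completely, and Sema7a and its receptor Plxnc1 differed in opposite directions. Sema6a was higher from a low level, 0.909, 1.03 and 0.830 TMM-scaled CPM in CD61 low cells and 2.87, 1.78 and 3.41 in CD61 high cells (Log2FC of 1.53 ± 0.30 (SE), edgeR adjusted p = 0.0018). The CD61 low range stayed below the CD61 high one. Sema4d was at 25.8, 27.9 and 29.3 TMM-scaled CPM in CD61 low cells and 57.3, 53.7 and 55.6 in CD61 high cells (Log2FC of 1.01). Sema4g was at 11.1, 10.7 and 12.7 TMM-scaled CPM in CD61 low cells and 25.5, 20.7 and 24.6 in CD61 high cells (Log2FC of 1.04). These last 2 genes separated the gates and were just past the fold threshold. The members not called were Sema4a, Sema4b, Sema4c, Sema6b and Sema6c, with Log2FC of 0.79, 0.01, 0.26, 0.61 and 0.26.

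Among the tested receptors, the highest Log2FC was that of Nrp1, at 35.1, 34.9 and 47.3 TMM-scaled CPM in CD61 low cells and 109, 93.5 and 105 in CD61 high cells. Every CD61 high library was far above the highest CD61 low one (Log2FC of 1.39 ± 0.12 (SE), edgeR adjusted p = 8.7e-06). Nrp2 (0.80, adjusted p = 3.1e-04), Plxnb2 (0.82, adjusted p = 2.0e-05) and Plxnd1 (0.85, adjusted p = 2.8e-05; edgeR) passed the adjusted p but not the fold threshold and were not called. Plxna1, Plxna2, Plxna3 and Plxnb1 had Log2FC from -0.51 to 0.38.

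Slit3 was at 57.2, 49.8 and 76.9 TMM-scaled CPM in CD61 low cells and 219, 169 and 201 in CD61 high cells, without overlap between the gates (Log2FC of 1.68 ± 0.15 (SE), edgeR adjusted p = 1.1e-05). Slit2 was at 57.8, 55.6 and 72.0 TMM-scaled CPM in CD61 low cells and 40.6, 30.2 and 35.0 in CD61 high cells, also without overlap but in the other direction and under the fold threshold (Log2FC of -0.81 ± 0.13 (SE), edgeR adjusted p = 4.4e-04). Robo2, the receptor of both, had a Log2FC of 0.81, adjusted p = 0.0015 (edgeR). Ntn5 was at 9.52, 8.54 and 6.79 TMM-scaled CPM in CD61 low cells and 26.8, 32.5 and 29.6 in CD61 high cells, with every CD61 high library above every CD61 low one (Log2FC of 1.84 ± 0.14 (SE), edgeR adjusted p = 2.8e-06). Its antisense neighbour Sec1 had means of 0.545 and 1.71 TMM-scaled CPM in the same gates. Ntn1, which fell with time, had a Log2FC of 0.21, adjusted p = 0.092 between the gates, and Ntn4 of -0.71. Unc5b had 0.27.

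Efnb1, the transmembrane ephrin read by Ephb2 and Ephb3, was at 88.5, 76.3 and 85.6 TMM-scaled CPM in CD61 low cells and 166, 179 and 160.0 in CD61 high cells (Log2FC of 1.01 ± 0.08 (SE), edgeR adjusted p = 4.6e-06). Efna3 was at 11.4, 7.79 and 8.93 TMM-scaled CPM in CD61 low cells and 20.3, 16.9 and 20.7 in CD61 high cells (Log2FC of 1.04 ± 0.15 (SE), edgeR adjusted p = 2.9e-04). Both separated the gates without overlap. Efnb2 (-0.82) and Efnb3 (-0.95) had negative Log2FC under the fold threshold. None of the 8 tested Eph receptors was called by edgeR, with 6 of the 8 at an unadjusted p below 0.05, and their Log2FC ran from -1.24 (Epha1, whose exons overlap the opposite-strand gene Zyx for 1456 of 3405 bases, with Zyx at means of 245 and 185 TMM-scaled CPM in CD61 low and high cells and Epha1 at 1.07 and 0.447) to 0.90 (Epha8). DESeq2 likewise called 0 of them. Epha1 was called lower by edgeR with library size alone (-1.54) and with a threshold of 0.05 for the adjusted p (-1.24). Epha4 and Epha7 fell below the count filter, at means of 2.41 and 1.01 TMM-scaled CPM in CD61 low cells and 0.332 and 0.117 in CD61 high cells.

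The calls near the fold threshold were the fragile ones. Sema4d, Sema4g, Efna3 and Efnb1, with Log2FC of 1.01 to 1.04, had 0.70 to 0.74 with library size alone and were then not called, and Sema4d and Efnb1 (both 0.99) were not called with TMM factors computed after the filter. Sema4d lost its call without CD61 low replicate 1 (Log2FC of 0.95), CD61 high replicate 1 (0.98) or CD61 high replicate 3 (0.997). Sema4g lost it without CD61 low replicate 2 (0.98), CD61 high replicate 1 (0.98) or CD61 high replicate 3 (0.998). Efna3 lost it without CD61 low replicate 2 (0.91), CD61 low replicate 3 (0.99) or CD61 high replicate 3 (0.98), and Efnb1 without CD61 low replicate 2 (0.94) or CD61 high replicate 2 (0.96). Calls for the other 11 members held with each library left out. Members gained by leaving out a library were Efnb3, without CD61 low replicate 1 (-1.04) or CD61 high replicate 2 (-1.08), Sema3g, without CD61 low replicate 2 (-1.14), and Epha8, without CD61 low replicate 3 (1.06) or CD61 high replicate 1 (1.0002). Those gained with library size alone were all lower: Efnb2 (-1.12), Efnb3 (-1.25), Ntn4 (-1.01), Sema3g (-1.28), Epha1 (-1.54) and Slit2 (-1.11). In a test against a Log2FC of 1 itself, 6 members passed, 3 in each direction. Over all 12077 tested genes, 188 were higher and 213 lower in that test. Vwf was at means of 18.0 and 80.3 TMM-scaled CPM in CD61 low and high cells, with the other 6 endothelial markers at 0.274 or less in both, and the 5 macrophage and blood cell markers summed to 12.8 to 15.8 and 8.24 to 8.86. Their part in the differences between the gates was not tested.

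**Figure D4:**
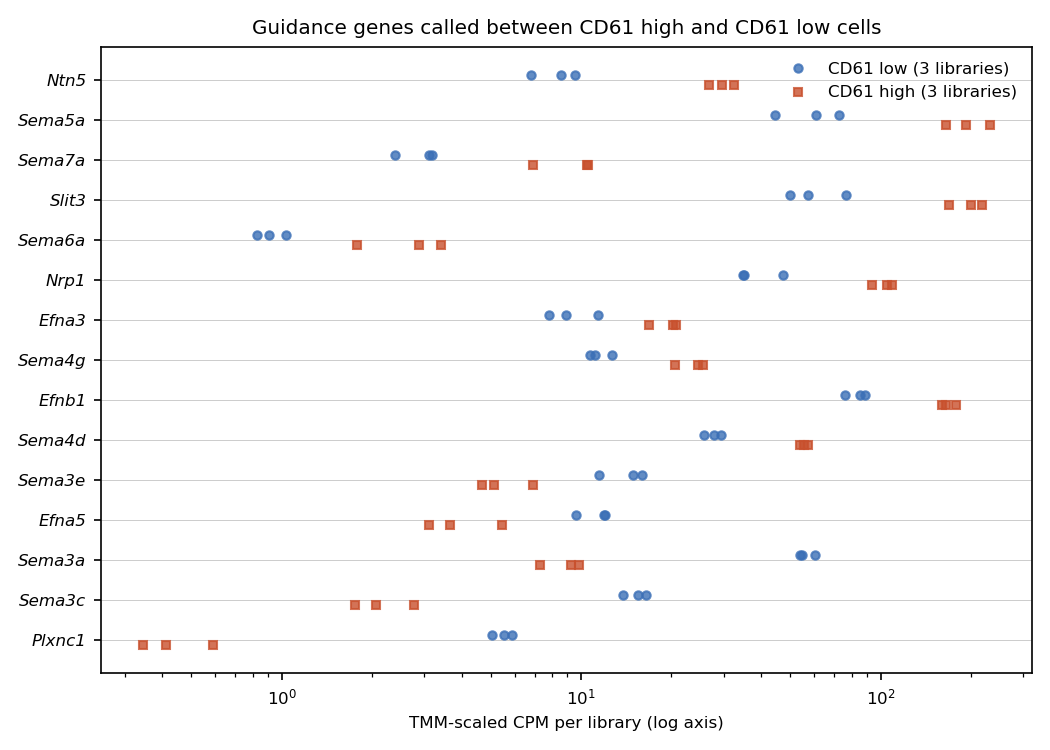
TMM-scaled CPM on a log axis for the 15 guidance genes called between the CD61 gates, with 1 point per library (3 CD61 low, 3 CD61 high), ordered by Log2FC. In each of the 15 genes the 3 CD61 high libraries lie wholly to one side of the 3 CD61 low libraries.

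The 2 experiments share no library, so members could be followed from one to the other. Of 50 members tested in both, 8 were called in the same direction in both and 0 in opposite directions. These were Efna3, Ntn5, Sema4d, Sema4g, Sema5a and Slit3, higher at day 14 and in CD61 high cells, and Sema3a and Sema3c, lower in both. Without CD61 high replicate 3, and likewise in the test against a Log2FC of 1, the 8 became 5, Sema4d, Sema4g and Efna3 being lost. With library size alone 8 were counted, of which 5 were among these. As reported, they make up 44.4% of the 18 such members called at day 14 and 53.3% of the 15 called between the gates. Over all 11445 genes tested in both, 569 were called in the same direction and 27 in opposite directions, and the 569 make up 37.9% of the genes called at day 14 and 53.6% of those called between the gates. The shares of the members were thus near those of all genes. Across the 50 members the Log2FC of the 2 experiments had a Pearson correlation of 0.66, and across all genes of 0.57. Genes are the points in these correlations and are no replicates of one another, and both gates hold cells of a late culture. The 10 called at day 14 and not between the gates were Ntn1, Plxnb1, Sema3b, Sema3d, Sema4a, Efnb2, Efnb3, Epha8, Ephb6 and Slit2. The 7 called between the gates and not at day 14 were Plxnc1, Sema7a, Nrp1, Efnb1, Sema3e, Efna5 and Sema6a.

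**Figure D5:**
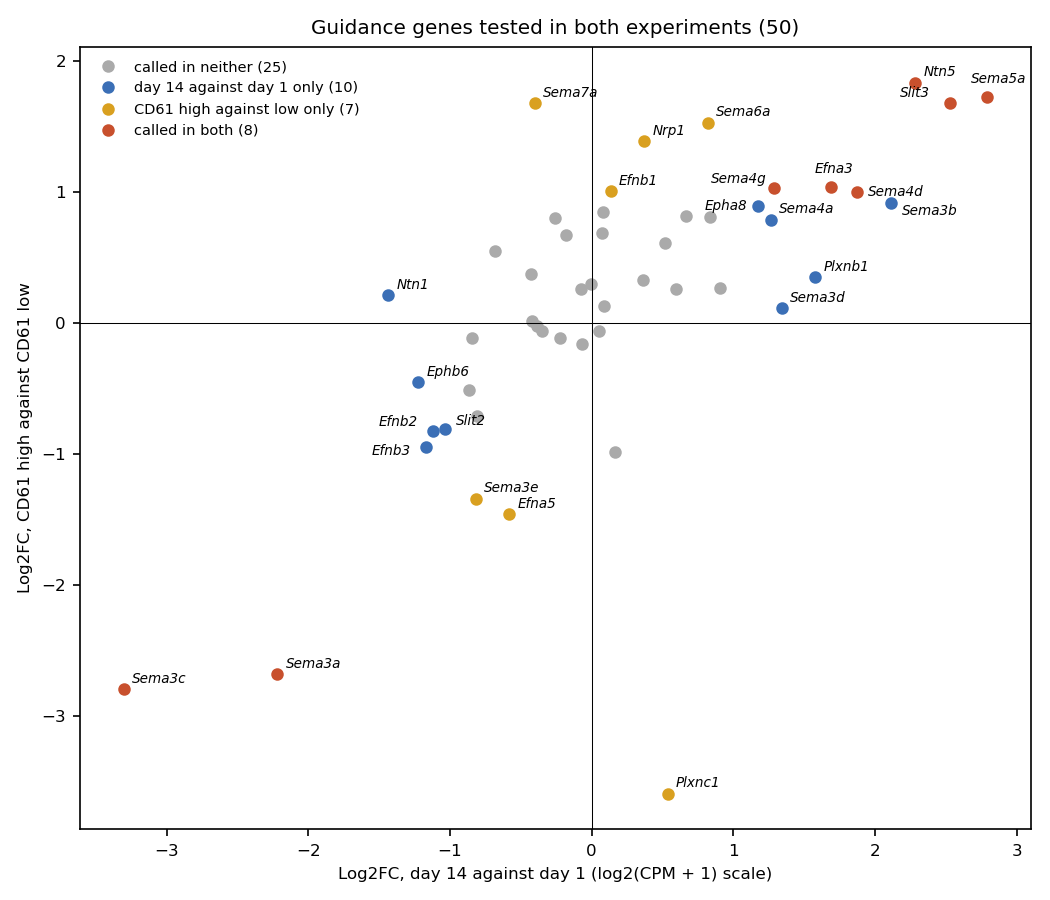
Log2FC of CD61 high against CD61 low cells plotted against Log2FC of day 14 against day 1 for the 50 guidance genes tested in both experiments, coloured by call. Sema3a and Sema3c lie at the lower left, Sema5a, Slit3 and Ntn5 at the upper right, and Plxnc1 far below the rest near a time-course Log2FC of 0.54.

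Promoter sequences were read for the members that moved together in both experiments, with Slit2 added as the paralogue that moved against Slit3. RefSeq promoter windows, from a table made on GRCm38.p6, were found for 59 of the 69 symbols. The 250 bases before each start were used and placed on GRCm39, the build of the sorted-cell files, by exact match. The 5 sequences shown are the bases of each window that come before an exon of the gene in the GENCODE M39 annotation. The windows of Sema3c, Slit3, Sema4d and Sema4g are left out because they have under 150 such bases. Capitals mark letters searched for on both strands: GGGCGG (GC box), ACGTG (hypoxia response element core), ACCACA (RUNX), GGAATG (TEAD) and TGAGTCA (AP-1).
Sema5a (chr15:32244709-32244918, + strand; gene at chr15:32244919-32696487): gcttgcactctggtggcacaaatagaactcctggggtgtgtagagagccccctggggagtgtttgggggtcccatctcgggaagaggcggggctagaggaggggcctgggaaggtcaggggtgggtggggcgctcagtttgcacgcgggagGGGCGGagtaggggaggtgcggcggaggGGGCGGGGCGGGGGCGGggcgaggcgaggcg
Efna3 (chr3:89230273-89230496, - strand; gene at chr3:89221203-89230272): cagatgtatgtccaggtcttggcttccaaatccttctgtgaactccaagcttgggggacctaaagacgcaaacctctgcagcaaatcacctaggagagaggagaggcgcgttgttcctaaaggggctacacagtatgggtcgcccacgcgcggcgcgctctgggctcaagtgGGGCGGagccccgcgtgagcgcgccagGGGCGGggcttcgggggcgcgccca
Ntn5 (chr7:45333196-45333445, + strand; gene at chr7:45333446-45344100): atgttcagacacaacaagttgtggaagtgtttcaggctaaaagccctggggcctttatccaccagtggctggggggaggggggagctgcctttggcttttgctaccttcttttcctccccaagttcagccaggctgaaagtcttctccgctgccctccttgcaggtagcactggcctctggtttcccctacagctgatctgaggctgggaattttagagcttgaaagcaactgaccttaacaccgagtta
Sema3a (chr5:13446501-13446750, + strand; gene at chr5:13175288-13653578): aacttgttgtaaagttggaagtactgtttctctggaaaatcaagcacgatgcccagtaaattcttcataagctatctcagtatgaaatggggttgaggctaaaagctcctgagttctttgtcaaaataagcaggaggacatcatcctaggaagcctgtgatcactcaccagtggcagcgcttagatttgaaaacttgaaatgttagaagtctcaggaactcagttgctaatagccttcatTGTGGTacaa
Slit2 (chr5:48140247-48140479, + strand; gene at chr5:48140480-48465075): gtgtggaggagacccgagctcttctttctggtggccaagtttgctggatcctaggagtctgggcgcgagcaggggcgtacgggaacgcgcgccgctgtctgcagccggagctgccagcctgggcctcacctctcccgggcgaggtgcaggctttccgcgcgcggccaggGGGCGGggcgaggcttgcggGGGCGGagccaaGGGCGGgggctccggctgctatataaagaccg

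Sema5a held 4 GC boxes in 210 bases with 71.0% G and C, Slit2 held 3 in 233 bases (70.4%), and Efna3 held 2 in 224 bases (63.4%). Sema3a and Ntn5, at 40.8% and 52.8% G and C, held none, and Sema3a had 1 RUNX match on the reverse strand. The Sema3a window lies inside its gene model and precedes a start that carried 49.8% of the gene's TPM in the sorted cells, where starts within 1000 bases of the window carried 100% for Sema5a and Ntn5, 80.9% for Efna3 and 70.4% for Slit2. Of 23 members called in either comparison that have a window, 18 held a GC box, beside 35.4% of 27025 genes with windows, and 39 of 51 tested members did too. The hypoxia core was in 6 of the 23 (18.5% of all genes), RUNX letters in 3 (15.9%), TEAD letters in 3 (14.4%) and AP-1 letters in 0 (5.16%). A match is a description of letters, not of binding.

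Genes that work with guidance receptors were examined through a list of 49 partners (signalling regulators, Flrt and netrin-G proteins, kinases and proteoglycans), of which 40 were tested. At day 14, 7 rose and 5 fell (30% of 40), and between the gates 6 were higher and 4 lower (25%), beside the 13.4% and 9.22% of all genes given above. The largest day 14 Log2FC were those of Ngef, which encodes ephexin and acts below Epha4, at 2.30 and 1.66 CPM on day 1 and 51.9 and 54.4 on day 14 (Log2FC of 4.19), Ntng2, a GPI-anchored netrin-G, at 3.54 and 3.39 CPM on day 1 and 41.2 and 38.1 on day 14 (3.19), and Flrt2, an Unc5 ligand, at 113 and 117 CPM on day 1 and 15.4 and 15.1 on day 14 (-2.83). None of these overlapped between the days. Between the gates the largest were Flrt1, at 5.02, 4.32 and 5.37 TMM-scaled CPM in CD61 low cells and 0.704, 0.518 and 1.18 in CD61 high cells (Log2FC of -2.61), Flrt2 (-1.71) and Gpc1, a heparan sulfate proteoglycan that binds Slits, at 1034, 898 and 1016 TMM-scaled CPM in CD61 low cells and 2857, 2883 and 2975 in CD61 high cells (1.56). The gates did not overlap for Flrt1 or Gpc1. Ngef and Ntng2 had Log2FC of 0.39 (not called) and 1.25 (called) between the gates, and Flrt1 had 0.54 (not called) at day 14. Epha4, above Ngef, fell at day 14, as given above.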

How the data were processed

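The members and lists were chosen with earlier results of these data known. Per the study's methods, the authors mapped the differentiation reads with STAR, counted them per gene with HTSeq and deposited CPM, scaled to 1000000 per library. Whole reads were recovered from the deposited CPM (100% of values within 0.01 of a whole read). The sorted libraries were quantified with Salmon on GRCm39 (release 104), and the deposited estimated counts and TPM per transcript were summed per gene with GENCODE M39, counts being rounded. Differentiation libraries were fitted together with limma 3.58.1 (eBayes with a mean-variance trend) on log2(CPM + 1), after a filter of more than 1 CPM in at least 1 library. Sorted counts were fitted with edgeR 4.0.16 (quasi-likelihood test, TMM over all genes, at least 5 normalized counts in all 6 libraries) in R 4.3.3. Benjamini-Hochberg adjustment ran over all tested genes. Every called member is named, with uncalled ones at 5 CPM or more or partnering a called one. Tested alternatives were scaling, pseudocount, filter, tool (DESeq2 1.42.0 for the sorted cells), replicate block, thresholds and leaving out each library. Fits were tested on simulated data, and no outcome of that test is used here. The experiments used different RNA kits, so levels are not compared between them. The annotation behind the CPM table and strand use in counting are not given in the sources used here.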

Additional observations from a re-analysis of the deposited data

How the results depend on the processing

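Across all alternatives run, no called member reversed direction. The count of members called stayed within 1.5 times its reported value for days 7, 10 and 14 against day 1 and for day 10 against day 7. For day 14 against day 7, where 1 member was called, the count was 4 with a pseudocount of 0.1, 0 with a filter of a mean of at least 5 CPM (which leaves Sema6a untested), 5 with edgeR on recovered reads, and 1 to 3 with each library left out, being 3 without day 7 replicate 2 (Sema6b and Sema6c gained) and 2 without day 14 replicate 1 or 2. For day 14 against day 10, where 4 were called, it was 7 with a pseudocount of 0.1 and 8 with edgeR on recovered reads. Over all 12725 tested genes, day 14 against day 7 gave 423 higher and 125 lower with that pseudocount, instead of 243 and 66. With edgeR on recovered reads it gave 443 higher and 129 lower. Day 14 against day 10 gave 425 higher and 246 lower with the pseudocount and 504 and 227 with edgeR, instead of 266 and 111. Between the CD61 gates the count of members called was 6 in a test against a Log2FC of 1, instead of 15, and 12 to 15 with each library left out. The count of members called in the same direction in both experiments, 8, was 5 in that test against a Log2FC of 1 and 5 to 9 with each library left out, a check chosen after seeing the data. At day 7 Efnb3 (Log2FC of -1.003) lost its call without day 1 replicate 2 (-0.99) or day 7 replicate 1 (-0.95), with quantile normalization (-0.98) and with TMM scaling of CPM (-0.97), and at day 10 Epha4 lost its call without day 10 replicate 1 (-0.99). Members just under the fold threshold gained a call when a library was left out: Robo1, Efna3, Epha7, Sema7a and Sema3e at day 7, Sema4f and Ntn3 at day 10, and Sema6a at day 14. Over all genes, edgeR on recovered reads called 1339 higher and 953 lower at day 14. Same-numbered libraries did not consistently deviate together (correlations of -0.03 to 0.06 in the differentiation experiment and -0.32, 0.22 and -0.06 in the sorted cells). Between differently numbered libraries of the gates, CD61 low replicate 3 had 0.47 with CD61 high replicate 1 and -0.41 with CD61 high replicate 2. Both gates were taken from the same 3 collected groups, and which replicate number goes with which group is not given in the sources used here. With the replicate block, the counts of members called were 21, 17 and 20 for days 7, 10 and 14 against day 1. They were 1 for day 14 against day 7, 8 and 4 around day 10, and 15 between the gates. All were the same as without it. Replicate numbers are not known to mark shared groups of cells, so this block cannot show what pairing by group would change. Depth limits the genes under 1 CPM, for which a member not tested is not shown to be absent.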
